A study of Mus musculus with 12 samples.

Results

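Interferon response and immunoproteasome genes were compared across the livers of HDAC6 knockout mice, HDAC9 knockout mice, wild-type mice on a high-fat diet and wild-type mice on chow. The set holds 38 gene symbols, of which 35 had an Affymetrix Mouse430A probe set annotated with that symbol alone, among 12393 genes read in the series. The gamma-induced class (16 of 16 symbols measured) holds genes best known as targets of interferon gamma: GTPases, immunoproteasome subunits, peptide-loading genes, 2 regulators and 2 chemokines. The type I class (19 of 22 measured) holds genes best known as targets of interferons alpha and beta: regulators, sensors and the ISG15 system, antiviral effectors and others. The probe set of Isg15 also carries another symbol, and Isg15, Xaf1 and Ifi44 were not analysed here. For the 9 members with several probe sets (48 probe sets in all for the 35 genes), the brightest on average stood for the gene.

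Each group had 3 arrays, hybridised with amplified RNA of whole liver, and every mouse was a C57BL/6 female between 8 and 12 weeks of age. The HDAC6 knockouts lack histone deacetylase 6, a deacetylase of tubulin and other cytoplasmic proteins. The HDAC9 knockouts lack histone deacetylase 9, a class IIa deacetylase. The high-fat wild-type mice received 60% of their energy from fat after weaning, and the chow-fed wild-type mice 25%. Diet is labelled for wild-type mice alone, so what sets a knockout apart from chow may include what it ate, and the labels do not say how or in which cells the genes were deleted. They number the replicates but name no mouse for them, so the spread behind every p-value is that of these samples and may be technical.

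Interferon gamma, made by T and NK cells, acts on gamma-activated sites (GAS) in promoters, and type I interferons act through STAT2 and IRF9 on interferon-stimulated response elements (ISRE). The 2 classes overlap, since many of these genes respond to both kinds of interferon. The immunoproteasome replaces the constitutive catalytic subunits of the proteasome with PSMB8, PSMB9 and PSMB10, which changes the peptides supplied to MHC class I. In liver, hepatocytes, Kupffer cells (the resident macrophages) and endothelial cells all respond to interferons.

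The values are log2 expression, the array medians lay between 5.78 and 5.86, and a difference of 2 group means had a standard error (SE) of 0.124 in the median gene. Liver-defining hepatocyte markers averaged 13.30 to 13.49 on the 12 arrays. Hdac6 read 6.17, 6.16 and 6.50 in HDAC6 knockout livers, against 7.89, 7.98 and 7.86 in chow livers, a fall with a fitted log2 difference of -1.63 (SE 0.133, adjusted p = 6.79e-05). Hdac9 averaged 4.20 ± 0.18 in HDAC9 knockout livers and 4.30 ± 0.11 in chow livers (SD, n = 3 each), inside the range of 2.67 to 6.93 spanned by the means of 10 genes chosen as silent in liver, so its probe set did not check the HDAC9 label. Of the 35 members, 8 averaged under 6.93, namely Mx1, Mx2, Oasl2, Ifit2, Stat2, Tap2, Irf8 and Cxcl10, and their values may hold background. That bound is the highest of the 10 genes, whose median was 3.06, and the dimmest member averaged 4.56. Marker lists of T and NK cells, B cells and neutrophils also averaged under 6.93 on every array, so the same limit holds for them. Exocrine pancreas markers averaged 8.75 on HDAC9 knockout replicate 2 and 4.68 to 5.56 on the other 11 arrays.

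Promoter windows of 300 bases, from 250 before to 50 after a gene's start, were at hand for 31 of the 38 symbols (RefSeq, build GRCm38.p6). Usp18, Tap2, Iigp1, Parp14, Mx1, Mx2 and Rtp4 had no entry. The ISRE core GAAANNGAAA, read on both strands, occurred in the windows of 12 of the 31 genes (38.7%), against 3.99% of 27025 genes with a window. By class it occurred in 5 of 14 gamma-induced genes and 7 of 17 type I genes. The GAS letters TTCNNNGAA, the same on both strands, occurred in 7 of 31 (22.6%), against 9.55% of all genes. Neighbouring ISRE cores overlapped in Gbp3, Irgm1, Bst2 and Isg15, and a GAS match overlapped an ISRE core in Bst2. Matches of letters are a description and do not show a bound site.

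The sequences below are the bases just before the start, shown for the gamma-induced GTPases with an entry, the immunoproteasome genes and the antiviral effector Ifit1, with matches to either motif in capitals. They include Ifi47 and Psmb10, whose windows held neither motif. The interval between Psmb9 and Tap1, neighbouring genes transcribed away from each other, is given whole on the plus strand and held neither motif. The letters TTTC in capitals are the core read on the other strand.
Gbp3, chr3:142559944-142560043, plus strand: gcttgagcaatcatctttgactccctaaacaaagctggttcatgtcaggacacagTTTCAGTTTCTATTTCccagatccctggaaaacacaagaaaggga
Gbp2, chr3:142620563-142620662, plus strand: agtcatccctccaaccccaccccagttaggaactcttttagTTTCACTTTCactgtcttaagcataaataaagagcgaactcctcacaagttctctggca
Igtp, chr11:58199456-58199555, plus strand: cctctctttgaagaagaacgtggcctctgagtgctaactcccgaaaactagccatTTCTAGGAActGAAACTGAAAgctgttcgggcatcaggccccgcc
Irgm1, chr11:48871421-48871520, minus strand: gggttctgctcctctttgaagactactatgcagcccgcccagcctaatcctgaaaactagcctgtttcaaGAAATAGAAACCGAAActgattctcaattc
Ifi47, chr11:49076487-49076586, plus strand: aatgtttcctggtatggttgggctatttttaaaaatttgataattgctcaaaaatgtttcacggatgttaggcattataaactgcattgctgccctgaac
Ifit1, chr19:34640769-34640888, plus strand: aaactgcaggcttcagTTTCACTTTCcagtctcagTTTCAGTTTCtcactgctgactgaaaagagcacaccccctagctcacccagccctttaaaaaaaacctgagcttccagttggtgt
Psmb8, chr17:34198095-34198194, plus strand: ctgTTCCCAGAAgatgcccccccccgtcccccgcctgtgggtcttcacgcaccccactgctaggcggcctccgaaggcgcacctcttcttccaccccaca
Psmb10, chr8:105938393-105938492, minus strand: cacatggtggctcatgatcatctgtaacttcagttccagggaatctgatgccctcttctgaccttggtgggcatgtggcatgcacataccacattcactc
Psmb9 to Tap1, chr17:34187331-34187555, plus strand: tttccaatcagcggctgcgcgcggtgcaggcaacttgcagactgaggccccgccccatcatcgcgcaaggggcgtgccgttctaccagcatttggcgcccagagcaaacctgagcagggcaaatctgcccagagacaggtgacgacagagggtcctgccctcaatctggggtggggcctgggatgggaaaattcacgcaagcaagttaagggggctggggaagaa
Gbp3, Gbp2, Igtp and Irgm1 held their ISRE cores between bases -59 and -15, counted from the start, while Ifi47 and the window of a second Gbp3 start held none. Igtp held a GAS match beside its core, and Psmb8 held a GAS match and no ISRE core.

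The high-fat diet was compared with chow in wild-type mice to ask how these genes differ with diet. In high-fat livers the guanylate-binding GTPase gene Gbp3 rose 1.81-fold, a call that was lost in 8 of 13 alternative settings, and the means of the other 15 gamma-induced genes lay above those of chow livers and did not pass the test. Type I genes had the higher mean in high-fat livers for 16 of 19. The members' median log2 difference was 0.26 in the gamma-induced class and 0.21 in the type I class, against -0.01 over all genes. All 3 high-fat arrays lay above all 3 chow arrays for 11 of the 35 members, 7 gamma-induced (Gbp3, Psmb9, Psmb8, Psmb10, Cxcl9, Tap2 and Iigp1) and 4 type I (Irf7, Ifit3, Bst2 and Rtp4), and 0 members lay the other way.

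Across all genes, 47.2% had the higher mean in high-fat livers, 7.02% had all high-fat arrays above all chow arrays, and 7.71% the opposite. By limma with Benjamini-Hochberg adjustment over all genes, 1 of 35 members passed an adjusted p under 0.05, against 0.290% of all genes (36 of 12393). At an unadjusted p under 0.05, 11 members were higher and 1 was lower, against 4.13% and 4.35% of all genes. The count of members whose groups do not overlap depended on the arrays kept, and leaving out an array can only keep or raise it. The same holds for the share of all genes, and not every removal is given here. Without high-fat replicate 1 the count was 13 gamma-induced and 12 type I genes, against 12.3% of all genes in the same 5 arrays. Without chow replicate 2 it was 11 and 5 (13.2% of all genes), and without chow replicate 1 it was 8 and 9 (11.5%). The class medians stayed between 0.22 and 0.35 (gamma-induced) and between 0.14 and 0.34 (type I) when any high-fat or chow array was left out.

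Most markers of macrophages, T and NK cells and B cells also had the higher mean in high-fat livers. On high-fat replicates 1, 2 and 3 the members' median deviation from the 12-array means was 0.01, 0.19 and 0.27. By subset of the members it was 0.295, 0.164 and 0.288 for immunoproteasome genes and 0.022, 0.227 and 0.342 for GTPases. Antiviral effectors had -0.045, 0.166 and 0.235. For Kupffer cell and macrophage markers the median deviation was 0.30, 0.16 and 0.01. T and NK cell markers had 0.223, 0.049 and 0.076, and B cell markers 0.312, 0.095 and 0.168. All 11 measured Kupffer cell and macrophage markers, of 12 listed, had the higher mean in high-fat livers (median log2 difference 0.36), and their mean level ran from 9.26 to 9.53 in high-fat livers and from 8.79 to 9.17 in chow livers. The scavenger receptor gene Marco differed by 1.04 (adjusted p = 0.093). At or below the background median of 3.06 lay 0 of the 11, and likewise 0 of the T and NK cell, B cell and neutrophil markers. T and NK cell markers, 12 of 14 measured, averaged 4.76 to 4.99 in high-fat livers and 4.66 to 4.82 in chow livers, and 10 had the higher mean in high-fat livers. B cell markers (5 of 6 measured) averaged 5.64 to 5.84 in high-fat livers and 5.22 to 5.89 in chow livers. The part of these cells in the members' differences was not tested. In whole liver, more cells of a type and more RNA per cell cannot be told apart.

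**Figure D1:**
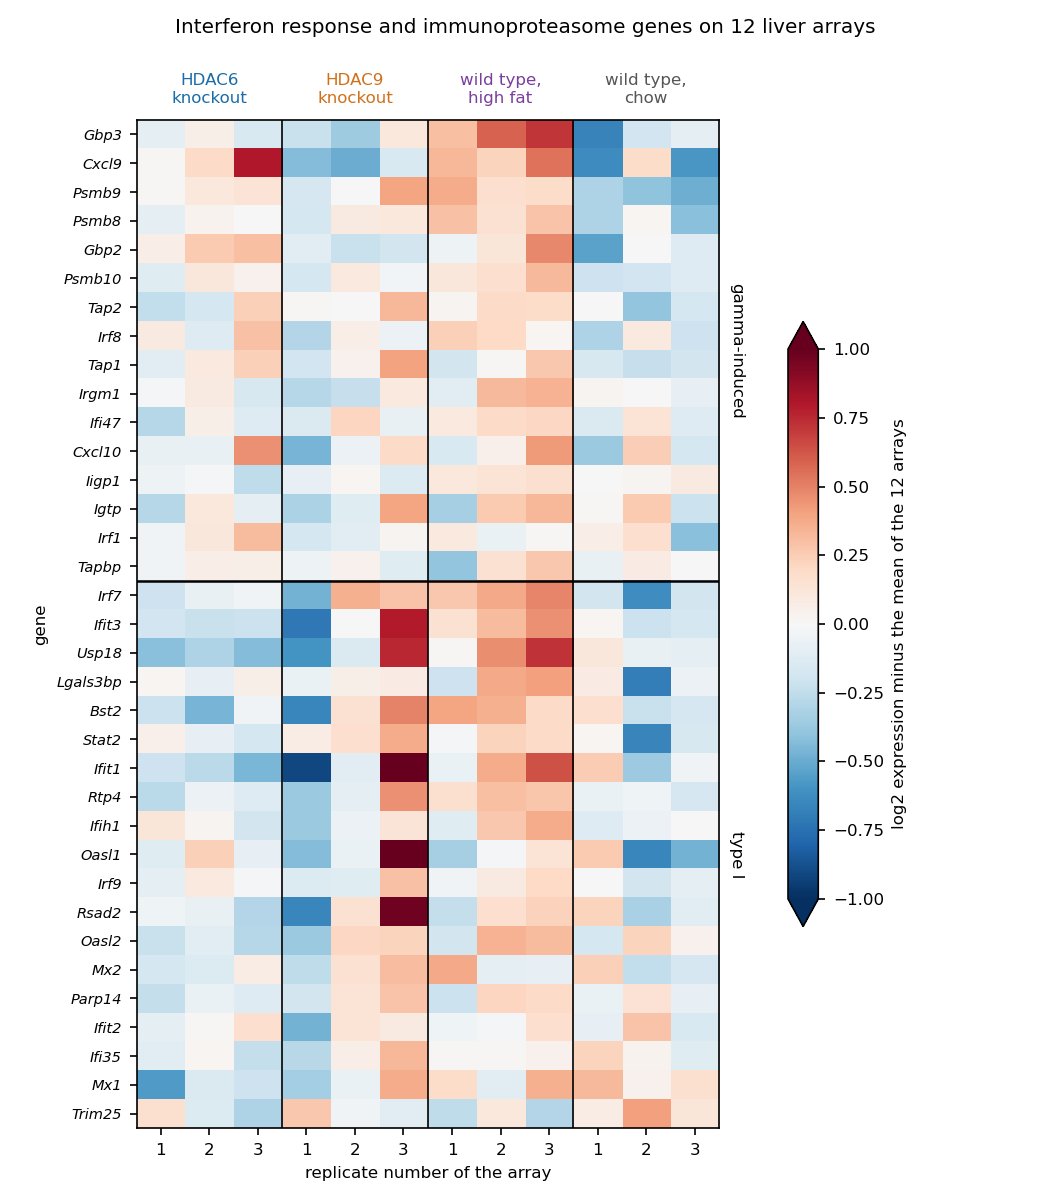
Log2 expression of the 35 members (rows, gamma-induced above the line and type I below) on the 12 arrays (columns, by group and replicate number), as the difference from each gene's mean over the 12 arrays, with colours ending at 1 either way. The columns of high-fat replicates 2 and 3 are mostly red, that of replicate 1 is mixed, and among type I genes HDAC9 knockout replicate 1 is mostly blue while replicate 3 is mostly red.

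The HDAC6 knockout was compared with chow-fed wild type to ask what the loss of HDAC6 does to these genes. No member passed the test (0 of 35, against 0.0161% of all genes by limma). Gamma-induced genes had the higher mean in HDAC6 knockout livers for 12 of 16 (median log2 difference 0.20) and type I genes for 7 of 19 (median -0.07), against 45.6% of all genes (median -0.01). All 3 knockout arrays lay above all 3 chow arrays for Psmb9, Gbp2, Psmb10 and Tap1, and below them for Mx1, Usp18 and Iigp1, while the shares of all genes were 4.83% and 5.31%. At an unadjusted p under 0.05, 3 members were higher and 1 lower, against 2.74% and 3.03% of all genes. Without chow replicate 2, 8 gamma-induced genes lay wholly above chow and 4 type I genes wholly below, against 10.2% and 8.48% of all genes. Leaving out an array can only keep or raise these counts. Kupffer cell and macrophage markers had the higher mean in HDAC6 knockout livers for 10 of 11, with a mean level of 9.22 to 9.39 there against 8.79 to 9.17 in chow livers, and their part in the differences was not tested.

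The HDAC9 knockout was set against the same 3 chow arrays, so the chow comparisons are not independent of each other. Here too 0 of 35 members passed, against 0.0968% of all genes (12 genes) by limma. The mean was higher in HDAC9 knockout livers for 9 of 16 gamma-induced genes (median 0.05) and 13 of 19 type I genes (median 0.09), against 46.0% of all genes (median -0.01). Psmb9, Stat2 and Tap2 lay wholly above chow and 0 members wholly below, against 5.39% and 7.21% of all genes. At an unadjusted p under 0.05, 2 members were higher (Psmb9 and Stat2) and 0 lower, against 2.49% and 3.60% of all genes. The sign of the type I median rested on 1 array: it was -0.13, with 5 of 19 genes higher, without HDAC9 knockout replicate 3, and 0.29, with 17 of 19 higher, without HDAC9 knockout replicate 1. Without HDAC9 knockout replicate 2, the array with pancreas markers, the medians were 0.03 (gamma-induced) and 0.10 (type I). Leaving out chow replicate 1 turned the gamma-induced median to -0.03. All 11 Kupffer cell markers had the higher mean (9.12 to 9.40 in HDAC9 knockout livers against 8.79 to 9.17 in chow livers). So did all 8 neutrophil markers (4.85 to 5.60 against 4.55 to 4.76). The 5.60 was read on replicate 2, the array with pancreas markers, and replicates 1 and 3 averaged 4.85 and 4.92. The part of both marker lists in the differences was not tested.

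**Figure D2:**
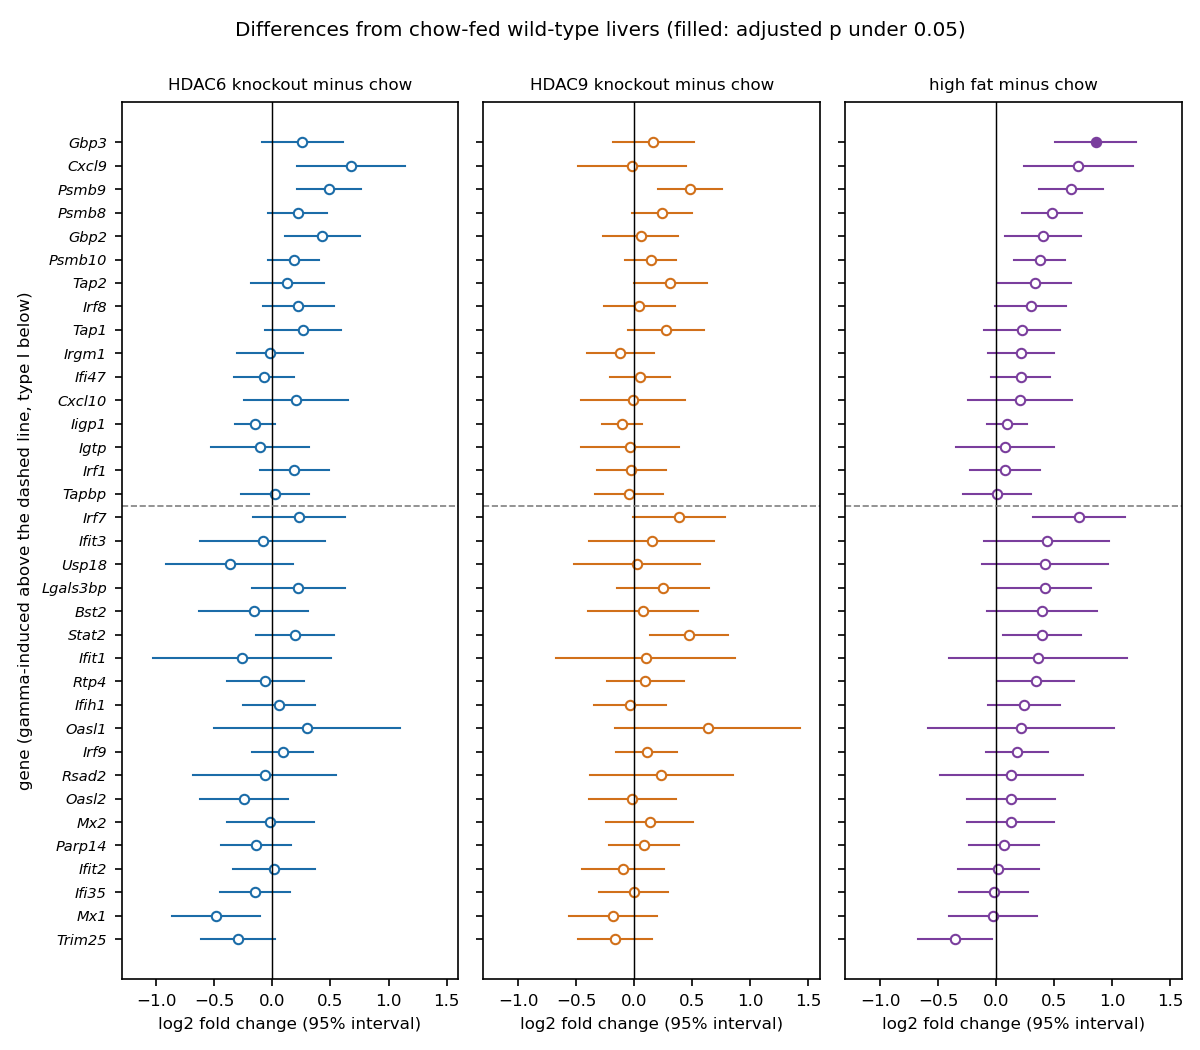
Fitted log2 fold change of each member (rows) with its 95% interval in HDAC6 knockout, HDAC9 knockout and high-fat livers, each minus chow livers. The filled point is Gbp3 in high-fat livers, the member with an adjusted p under 0.05, and all 16 gamma-induced points of the high-fat panel lie above 0.

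Among the gamma-induced GTPases, Gbp3 belongs to the guanylate-binding proteins, which assemble on the vacuoles of intracellular pathogens. Gbp3 read 7.98, 8.13 and 7.92 in HDAC6 knockout livers, 7.85, 7.72 and 8.18 in HDAC9 knockout livers, 8.37, 8.66 and 8.79 in high-fat livers and 7.40, 7.88 and 7.98 in chow livers. Each high-fat array lay above every array of the other 3 groups, and chow replicate 1 was the lowest of the 12. The log2 difference of high-fat from chow livers was 0.86 (SE 0.163, adjusted p = 0.0477). The adjusted p ran from 0.0213 to 0.213 over 13 alternative settings, and the call was lost in 8 of them. Leaving out an array raised it to 0.0528, 0.161 and 0.213 without high-fat replicates 1, 2 and 3, and to 0.172 and 0.084 without chow replicates 1 and 2. The differences of Gbp3 from chow were 0.26 in HDAC6 knockout livers and 0.16 in HDAC9 knockout livers, and the arrays of both overlapped chow.

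Gbp2, a second guanylate-binding protein, read 7.54, 7.73 and 7.77 in HDAC6 knockout livers, 7.37, 7.25 and 7.29 in HDAC9 knockout livers, 7.42, 7.59 and 7.95 in high-fat livers and 6.94, 7.47 and 7.34 in chow livers. All HDAC6 knockout arrays lay above chow, by a mean of 0.43 (SE 0.152, adjusted p = 0.759), while the high-fat arrays, at 0.40 above chow (adjusted p = 0.458), overlapped it. The name of its probe set marks probes that can match other sequences, so signal of similar GTPase genes may enter Gbp2, and its second probe set differed from chow by 0.51 in HDAC6 knockout, 0.03 in HDAC9 knockout and 0.31 in high-fat livers. The probe set of Gbp3 is marked as shared by transcripts of its own gene. The immunity-related GTPases Irgm1, Igtp, Iigp1 and Ifi47, which act on membranes of pathogen vacuoles, differed less. Iigp1 averaged 12.27 ± 0.13 in HDAC6 knockout livers, 12.31 ± 0.08 in HDAC9 knockout livers, 12.51 ± 0.02 in high-fat livers and 12.41 ± 0.04 in chow livers (SD, n = 3 each). Its high-fat arrays lay above all the others, by a mean of 0.09 over chow (SE 0.080). Irgm1 averaged 8.95 in HDAC6 knockout, 8.85 in HDAC9 knockout, 9.18 in high-fat and 8.97 in chow livers, and Ifi47 averaged 9.27, 9.39, 9.55 and 9.34 in those groups. Igtp averaged 10.05 in HDAC6 knockout, 10.12 in HDAC9 knockout, 10.23 in high-fat and 10.15 in chow livers, differences smaller than its SD of 0.37 among high-fat arrays. Irgm1, Ifi47 and Igtp overlapped chow in all 3 comparisons.

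**Figure D3:**
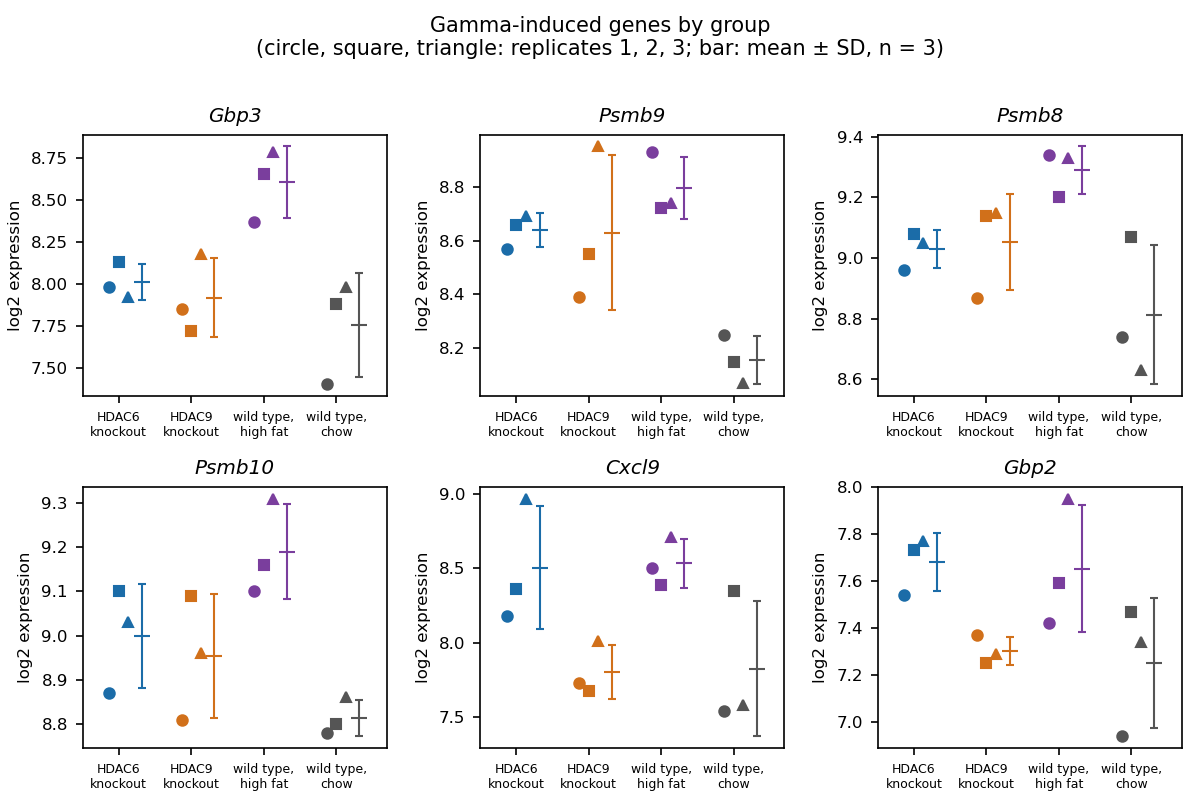
Log2 expression (y axis, scaled to each gene) of Gbp3, Psmb9, Psmb8, Psmb10, Cxcl9 and Gbp2 by group, with a point for each array and the mean ± SD of 3 arrays. The 3 high-fat arrays lie above the 3 chow arrays for Gbp3, Psmb9, Psmb8, Psmb10 and Cxcl9, and Gbp2 overlaps.

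The immunoproteasome genes were the subset of the gamma-induced class in which all members lay wholly above chow in high-fat livers. They are 3 genes, and the share of all genes was 7.02%. Psmb9, the subunit that takes the place of the caspase-like PSMB6, read 8.57, 8.66 and 8.69 in HDAC6 knockout livers, 8.39, 8.55 and 8.95 in HDAC9 knockout livers, 8.93, 8.72 and 8.74 in high-fat livers and 8.25, 8.15 and 8.07 in chow livers. Every array of the 3 other groups lay above every chow array. The log2 difference from chow was 0.49 in HDAC6 knockout livers (SE 0.129, adjusted p = 0.559), 0.48 in HDAC9 knockout livers (adjusted p = 0.403) and 0.65 in high-fat livers (adjusted p = 0.0577). These 3 differences share the chow arrays and passed no threshold. In high-fat livers Psmb9 passed under quantile normalization (0.67, adjusted p = 0.0479) alone among 14 alternatives, over which the adjusted p reached 0.223.

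Psmb8, the subunit that takes the place of the chymotrypsin-like PSMB5, read 8.96, 9.08 and 9.05 in HDAC6 knockout livers, 8.87, 9.14 and 9.15 in HDAC9 knockout livers, 9.34, 9.20 and 9.33 in high-fat livers and 8.74, 9.07 and 8.63 in chow livers. The high-fat arrays lay above all 9 others, and chow replicate 2 lay among the knockout arrays. The difference from chow was 0.48 in high-fat livers (SE 0.120, adjusted p = 0.174), 0.22 in HDAC6 knockout livers and 0.24 in HDAC9 knockout livers (adjusted p = 0.874 and 0.826). Psmb10, which replaces PSMB7, read 8.87, 9.10 and 9.03 in HDAC6 knockout livers, 8.81, 9.09 and 8.96 in HDAC9 knockout livers, 9.10, 9.16 and 9.31 in high-fat livers and 8.78, 8.80 and 8.86 in chow livers. It lay wholly above chow in high-fat livers (0.38, adjusted p = 0.23) and in HDAC6 knockout livers (0.19, adjusted p = 0.874). The constitutive counterparts differed from chow in high-fat livers by -0.02 (Psmb5), 0.10 (Psmb6) and -0.04 (Psmb7), and the arrays of each overlapped.

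Peptide loading follows the proteasome: TAP1 and TAP2 pump peptides into the endoplasmic reticulum, and tapasin (Tapbp) loads them onto MHC class I. Tap2 read 6.04, 6.11 and 6.52 in HDAC6 knockout livers, 6.30, 6.29 and 6.62 in HDAC9 knockout livers, 6.31, 6.48 and 6.47 in high-fat livers and 6.28, 5.89 and 6.11 in chow livers. The HDAC9 knockout and high-fat arrays lay above chow, with the lowest arrays of both just over chow replicate 1, on a probe set inside the background range. Their mean differences were 0.31 in HDAC9 knockout livers (adjusted p = 0.821) and 0.33 in high-fat livers (adjusted p = 0.56). Tap1 averaged 7.44 ± 0.17 in HDAC6 knockout livers, 7.44 ± 0.30 in HDAC9 knockout livers, 7.39 ± 0.22 in high-fat livers and 7.17 ± 0.04 in chow livers (SD, n = 3 each). The difference of Tap1 from chow was 0.27 in HDAC6 knockout, 0.27 in HDAC9 knockout and 0.22 in high-fat livers. The other 3 probe sets of Tap1 averaged 2.44 to 4.31, near background. Tapbp averaged 10.09 in HDAC6 knockout, 10.02 in HDAC9 knockout, 10.08 in high-fat and 10.07 in chow livers. A dimmer probe set of Tapbp, at a mean of 6.13, differed from chow by 0.52 in HDAC6 knockout, 0.42 in HDAC9 knockout and 0.40 in high-fat livers (SE 0.238), so the 2 probe sets of this gene disagreed.

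Of the chemokines, CXCL9 and CXCL10 draw T cells through their receptor CXCR3. Cxcl9 read 8.18, 8.36 and 8.97 in HDAC6 knockout livers, 7.73, 7.67 and 8.01 in HDAC9 knockout livers, 8.50, 8.39 and 8.71 in high-fat livers and 7.54, 8.35 and 7.58 in chow livers. Chow replicate 2 stood apart from the other chow arrays, just under the lowest high-fat array. The difference from chow was 0.68 in HDAC6 knockout livers (SE 0.218, adjusted p = 0.727), -0.02 in HDAC9 knockout livers (adjusted p = 0.993) and 0.71 in high-fat livers (adjusted p = 0.305). Cxcl10 averaged 6.41 ± 0.31 in HDAC6 knockout livers, 6.19 ± 0.33 in HDAC9 knockout livers, 6.41 ± 0.29 in high-fat livers and 6.20 ± 0.32 in chow livers (SD, n = 3 each), and all groups overlapped chow. The regulators IRF1, induced by interferon gamma, and IRF8, a factor of macrophages and dendritic cells, overlapped chow in every group. Irf1 averaged 8.78 in HDAC6 knockout, 8.56 in HDAC9 knockout, 8.66 in high-fat and 8.59 in chow livers, and Irf8 averaged 6.49, 6.31, 6.56 and 6.27 in those groups.

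In the type I class, STAT2 and IRF9 are parts of the factor that carries the type I signal to promoters, and IRF7 amplifies the production of interferon alpha. Irf7 read 8.09, 8.22 and 8.26 in HDAC6 knockout livers, 7.82, 8.65 and 8.58 in HDAC9 knockout livers, 8.56, 8.67 and 8.78 in high-fat livers and 8.11, 7.67 and 8.11 in chow livers. The high-fat arrays lay above chow, by a mean of 0.71 (SE 0.185, adjusted p = 0.199), and HDAC9 knockout replicates 2 and 3 lay at their height while replicate 1 lay inside the chow range. The difference of HDAC9 knockout from chow livers was 0.39 (adjusted p = 0.821), and 0.65 without HDAC9 knockout replicate 1. Stat2 read 6.85, 6.72 and 6.62 in HDAC6 knockout livers, 6.87, 6.97 and 7.17 in HDAC9 knockout livers, 6.78, 7.02 and 6.99 in high-fat livers and 6.82, 6.14 and 6.64 in chow livers. Its HDAC9 knockout arrays lay wholly above chow, by a mean of 0.47 (SE 0.157, adjusted p = 0.634), and chow replicate 2 was the lowest of the 12 arrays. Its level, too, lay inside the background range. In high-fat livers Stat2 differed from chow by 0.39 (adjusted p = 0.49), with overlap. Irf9 averaged 7.73 in HDAC6 knockout, 7.75 in HDAC9 knockout, 7.82 in high-fat and 7.64 in chow livers.

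USP18 removes ISG15 from proteins and restrains the type I receptor, TRIM25 is an E3 ligase that activates the RNA sensor RIG-I, and IFIH1 (MDA5) senses double-stranded RNA. Usp18 read 7.44, 7.55 and 7.42 in HDAC6 knockout livers, 7.26, 7.71 and 8.61 in HDAC9 knockout livers, 7.87, 8.32 and 8.58 in high-fat livers and 7.97, 7.78 and 7.76 in chow livers. The HDAC6 knockout arrays lay wholly below chow, by a mean of 0.37 (log2 difference -0.37, SE 0.255, adjusted p = 0.904), and the HDAC9 knockout arrays held both the lowest and the highest value of the 12. Trim25 read 9.97, 9.67 and 9.50 in HDAC6 knockout livers, 10.08, 9.77 and 9.69 in HDAC9 knockout livers, 9.55, 9.91 and 9.51 in high-fat livers and 9.88, 10.22 and 9.93 in chow livers. Its probe set is marked as shared with other transcripts. It was the member with the most negative difference in high-fat livers, -0.36 (SE 0.149, adjusted p = 0.517), and was -0.29 in HDAC6 knockout livers and -0.17 in HDAC9 knockout livers, with overlap throughout. A second probe set of Trim25 differed by -0.27 in high-fat livers, and the dimmest, at a mean of 5.15, by 0.02. Ifih1 averaged 9.17 in HDAC6 knockout, 9.08 in HDAC9 knockout, 9.35 in high-fat and 9.12 in chow livers, with overlap throughout.

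Of the 9 antiviral effectors, 8 had the higher mean in high-fat livers than in chow livers (47.2% of all genes). Ifit3 and Bst2, 2 of the 9, lay wholly above chow (7.02% of all genes). By limma, 0 of the 9 had an unadjusted p under 0.05, against 4.13% of all genes higher and 4.35% lower. Oasl1, an OAS-like protein that limits IRF7 translation, read 6.93, 7.29 and 6.97 in HDAC6 knockout livers, 6.62, 6.98 and 8.58 in HDAC9 knockout livers, 6.72, 7.03 and 7.19 in high-fat livers and 7.31, 6.40 and 6.58 in chow livers. HDAC9 knockout replicate 3 stood far above all other arrays, of which chow replicate 1 was the next. The difference of HDAC9 knockout from chow livers, 0.63 (SE 0.373, adjusted p = 0.84), was 0.04 without that array. Ifit1, which binds viral RNA lacking a host cap, read 8.39, 8.33 and 8.14 in HDAC6 knockout livers, 7.69, 8.49 and 9.75 in HDAC9 knockout livers, 8.53, 8.97 and 9.23 in high-fat livers and 8.85, 8.23 and 8.56 in chow livers. Its HDAC9 knockout replicates 1 and 3 were the lowest and the highest of the 12 arrays.

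Ifit3, a partner of Ifit1, averaged 7.42 ± 0.02 in HDAC6 knockout livers, 7.65 ± 0.75 in HDAC9 knockout livers, 7.94 ± 0.15 in high-fat livers and 7.50 ± 0.13 in chow livers (SD, n = 3 each). Bst2 (tetherin), which holds budding viruses at the cell surface, averaged 8.66 in HDAC6 knockout, 8.89 in HDAC9 knockout, 9.21 in high-fat and 8.82 in chow livers. Rsad2 (viperin) averaged 8.84 ± 0.13 in HDAC6 knockout livers, 9.13 ± 0.82 in HDAC9 knockout livers, 9.03 ± 0.25 in high-fat livers and 8.90 ± 0.28 in chow livers. The spread of Rsad2 and Ifit3 in HDAC9 knockout livers was above that of the other 3 groups. Mx1, an antiviral GTPase, read 3.99, 4.41 and 4.35 in HDAC6 knockout livers, 4.22, 4.49 and 4.93 in HDAC9 knockout livers, 4.74, 4.45 and 4.91 in high-fat livers and 4.88, 4.60 and 4.72 in chow livers. Its HDAC6 knockout arrays lay wholly below chow (log2 difference -0.48, SE 0.177, adjusted p = 0.76), on a probe set whose level lay inside the background range. Mx2 averaged 5.58 in HDAC6 knockout, 5.73 in HDAC9 knockout, 5.72 in high-fat and 5.59 in chow livers, Oasl2 averaged 5.89, 6.11, 6.25 and 6.13, and Ifit2 averaged 6.58, 6.47, 6.59 and 6.57 in those groups. These 3 genes overlapped chow in every comparison and also lay inside the background range.

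Of the 4 other type I genes, Rtp4 lay wholly above chow in high-fat livers. Rtp4, a receptor transporter protein, averaged 9.07 in HDAC6 knockout, 9.23 in HDAC9 knockout, 9.48 in high-fat and 9.14 in chow livers, a high-fat difference of 0.34 (SE 0.156, adjusted p = 0.583). Lgals3bp, a secreted galectin-binding glycoprotein, averaged 8.91 ± 0.07 in HDAC6 knockout livers, 8.94 ± 0.08 in HDAC9 knockout livers, 9.10 ± 0.35 in high-fat livers and 8.69 ± 0.41 in chow livers (SD, n = 3 each), where chow replicate 2, at 8.22, was the lowest array. Parp14, an ADP-ribosyltransferase, averaged 7.75 in HDAC6 knockout, 7.98 in HDAC9 knockout, 7.96 in high-fat and 7.89 in chow livers, and Ifi35 averaged 7.98, 8.13, 8.11 and 8.13 in those groups. Parp14, Ifi35 and Lgals3bp overlapped chow in every comparison.

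**Figure D4:**
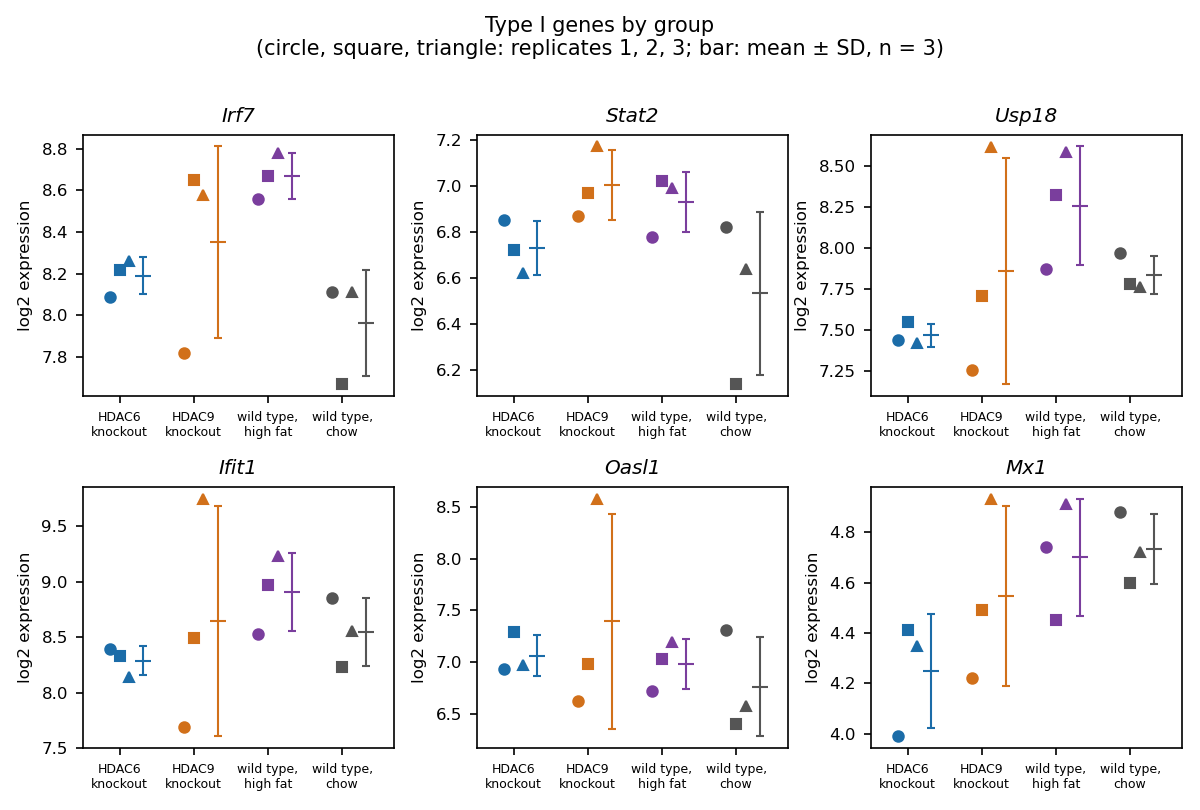
Log2 expression (y axis, scaled to each gene) of Irf7, Stat2, Usp18, Ifit1, Oasl1 and Mx1 by group, with a point for each array and the mean ± SD of 3 arrays. HDAC9 knockout replicate 3 is the highest array for Stat2, Usp18, Ifit1, Oasl1 and Mx1, and the 3 high-fat arrays lie above the 3 chow arrays for Irf7.

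The type I genes varied more between the 3 HDAC9 knockout arrays than within the other groups. Their median SD within the group was 0.343 in HDAC9 knockout livers, 0.128 in HDAC6 knockout livers, 0.234 in high-fat livers and 0.199 in chow livers, where all genes had medians of 0.114, 0.136, 0.122 and 0.131. HDAC9 knockout replicate 3 was the highest of the 12 arrays for 12 of the 19 type I genes, and replicate 1 the lowest for 11. The median deviation of the class from its 12-array means was -0.37, 0.06 and 0.33 on HDAC9 knockout replicates 1, 2 and 3, and it ran from -0.18 to -0.08 on the HDAC6 knockout arrays. Among gamma-induced genes the same 3 HDAC9 knockout arrays had median deviations of -0.18, 0.00 and 0.06, and the class had a median SD of 0.184 there. Over all 12 arrays the members had a median SD of 0.247, against 0.154 for all genes. No test was made of these spreads.

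**Figure D5:**
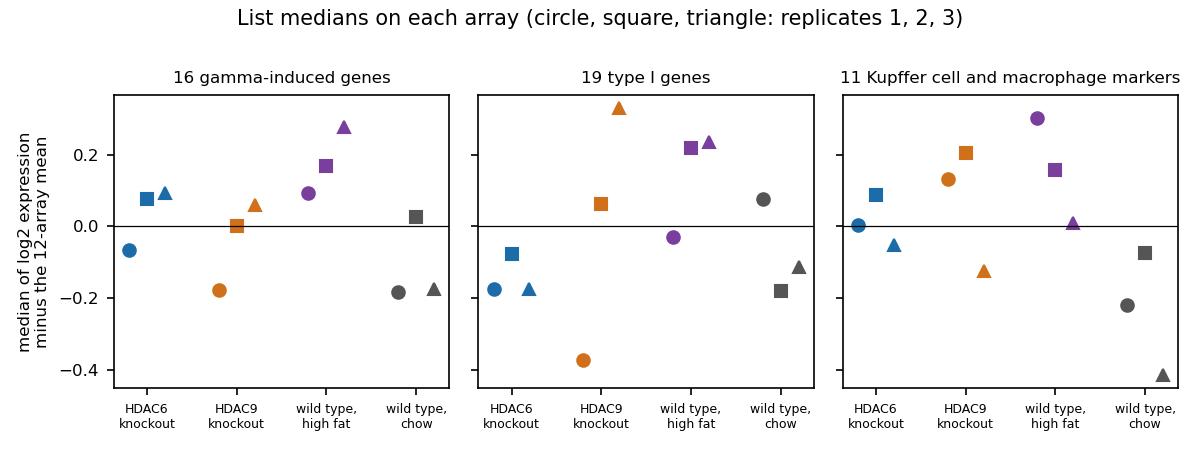
Median over a list of the log2 expression minus each gene's 12-array mean (y axis), 1 point an array, for the 16 gamma-induced genes, the 19 type I genes and 11 Kupffer cell and macrophage markers. The type I medians of the HDAC9 knockout arrays run from -0.37 to 0.33, and the Kupffer cell medians of the chow arrays are all below 0.

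The 2 knockouts were compared with each other to ask whether the loss of HDAC9 and of HDAC6 differ. No member passed (0 of 35, against 0.00807% of all genes by limma). The gamma-induced genes had the higher mean in HDAC9 knockout livers for 6 of 16 (median log2 difference, HDAC9 minus HDAC6 knockout, -0.06) and the type I genes for 17 of 19 (median 0.22). Of all genes, 49.7% had the higher mean in HDAC9 knockout livers (median -0.001), and the gamma-induced class lay near that. The type I median was 0.00 without HDAC9 knockout replicate 3, with 8 of 19 higher. Cxcl9 and Gbp2 lay wholly lower in HDAC9 knockout livers, at -0.70 and -0.38, and Stat2 wholly higher, at 0.27, against 4.71% and 3.74% of all genes wholly lower and wholly higher. At an unadjusted p under 0.05, 2 members were lower and 0 higher, against 2.02% and 1.78% of all genes. Without HDAC9 knockout replicate 1, 13 type I genes lay wholly higher in HDAC9 knockout livers (8.47% of all genes), and without replicate 3, 6 gamma-induced genes lay wholly lower (9.09% of all genes).

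High-fat wild-type livers were also set against each knockout. Against HDAC6 knockout livers 0 of 35 members passed (0.145% of all genes by limma), and 12 lay wholly higher in high-fat livers while 0 lay wholly lower, against 6.60% and 6.54% of all genes. The 12 were Gbp3, Ifi47, Iigp1, Psmb8 and Psmb9 of the gamma-induced class and Irf7, Usp18, Ifit1, Ifit3, Bst2, Mx1 and Rtp4 of the type I class. The mean was higher in high-fat livers for 12 of 16 gamma-induced and 17 of 19 type I genes, against 52.1% of all genes. The type I median was 0.20 and stayed between 0.15 and 0.34 when any array was left out. Without high-fat replicate 1, a removal that can only keep or raise these counts, 9 gamma-induced and 13 type I genes lay wholly higher. The share of all genes was then 11.7%. Usp18 differed by 0.79 (SE 0.255, adjusted p = 0.411) and Gbp3 by 0.60 (SE 0.163, adjusted p = 0.245). At an unadjusted p under 0.05, 9 members were higher and 0 lower, against 3.58% and 3.69% of all genes.

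Against HDAC9 knockout livers 0 of 35 members passed (0.436% of all genes by limma), and 6 lay wholly higher in high-fat livers and 0 wholly lower, against 7.67% and 6.13% of all genes. All 6 were gamma-induced: Gbp3, Gbp2, Iigp1, Cxcl9, Psmb8 and Psmb10. The members higher at an unadjusted p under 0.05 were also 6 (Gbp3, Gbp2, Iigp1, Cxcl9, Psmb10 and Irgm1), with 0 lower, against 4.46% and 3.64% of all genes. Gbp3 differed by 0.69 (SE 0.163, adjusted p = 0.0975) and Cxcl9 by 0.73 (SE 0.218, adjusted p = 0.253). The gamma-induced median was 0.21, with 15 of 16 higher, and the type I median was 0.14, with 12 of 19 higher, against 51.4% of all genes with the higher mean in high-fat livers. The type I median was -0.07, with 6 of 19 higher, without HDAC9 knockout replicate 1 and 0.25, with 18 of 19 higher, without replicate 3. In the test for any difference among the 4 groups, 0 of 35 members passed (0.331% of all genes by limma), with Gbp3 at an adjusted p of 0.106 and Psmb9 at 0.137. At an unadjusted p under 0.05 there were 9 members, against 7.48% of all genes.

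Genes of the pathway outside the member list were counted from lists of ligands, signalling genes, sensors, proteasome and MHC class I genes and further interferon-induced genes. Against chow, 0 members of these 6 lists passed in any of the 3 comparisons by limma. The shares of all genes were 0.0161% (HDAC6 knockout), 0.0968% (HDAC9 knockout) and 0.290% (high-fat), so a count of 0 is near those shares. The interferon genes Ifng and Ifnb1 read 2.68 to 3.02 and 3.85 to 4.26 over the 12 arrays, inside the background range. Of 10 interferons and receptors, 6 had the higher mean in high-fat livers (median 0.02), and the interferon gamma receptor chain Ifngr2 differed from chow by 0.49 in HDAC6 knockout livers (adjusted p = 0.833) and by 0.38 in high-fat livers (adjusted p = 0.653). Ifna2 differed by 0.33 in HDAC9 knockout livers (adjusted p = 0.8). Of 9 JAK-STAT genes, 3 had the higher mean in high-fat livers (median -0.01). Stat3 differed from chow by 0.46 in HDAC9 knockout livers (adjusted p = 0.741) and the phosphatase gene Ptpn11 by -0.26 in high-fat livers (adjusted p = 0.613).

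Of 13 nucleic acid sensing genes, 9 had the higher mean in high-fat livers (median 0.11), against 47.2% of all genes. There 3 lay wholly above chow and 2 wholly below, against 7.02% and 7.71% of all genes. The gene of smallest p was Zbp1, a sensor of Z-form nucleic acids. Zbp1 read 7.12, 6.91 and 6.73 in high-fat livers, against 6.33, 6.17 and 6.31 in chow livers. The groups of Zbp1 did not overlap, and the difference of 0.65 (SE 0.167) had an adjusted p of 0.187. Irf5, a factor of Toll-like receptor signalling, read 6.91, 6.88 and 6.95 in high-fat livers, 6.46, 6.37 and 6.44 in HDAC9 knockout livers and 6.71, 6.57 and 6.55 in chow livers. It rose in high-fat over HDAC9 knockout livers by 0.49 (SE 0.095, adjusted p = 0.0417), a call lost in 9 of 14 alternatives, among them every removal of an array of the 2 groups (adjusted p 0.0564 to 0.174) and the mean of the gene's probe sets (0.16, adjusted p = 0.781). Its difference from chow in high-fat livers was 0.30 (adjusted p = 0.319). Most of the Zbp1 and Irf5 values given here lay under 6.93, the top of the background range.

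The 5 constitutive proteasome and PA28 genes had a median of -0.04 in high-fat livers, with 1 of 5 higher. Psme3, a nuclear proteasome activator, differed from chow by -0.36 in high-fat livers (adjusted p = 0.601), and Psmb7 by -0.19 in HDAC6 knockout livers (adjusted p = 0.881). Of 8 MHC class I and loading-helper genes, 4 had the higher mean in high-fat livers (median -0.03). There 1 lay wholly above chow and 2 wholly below, against 7.02% and 7.71% of all genes. In HDAC6 knockout livers 3 of the 8 (Calr, Canx and Pdia3, chaperones of the endoplasmic reticulum) lay wholly below chow and 0 wholly above. The shares of all genes were 5.31% and 4.83%. The chaperone gene Canx differed from chow by -0.22 in high-fat livers (adjusted p = 0.436) and Pdia3 by -0.32 in HDAC6 knockout livers (adjusted p = 0.76). Of 31 further interferon-induced genes, 26 had the higher mean in high-fat livers (median 0.14) and 8 lay wholly above chow, against 7.02% of all genes. Oas1a, a synthase of the RNase L activator, read 7.98, 8.15 and 7.94 in high-fat livers, against 7.60, 7.63 and 7.38 in chow livers, a difference of 0.48 (SE 0.120, adjusted p = 0.164) with no overlap. Ccl5, a chemokine of T cells and macrophages, read 7.37, 6.81 and 6.90 in high-fat livers, against 6.20, 6.73 and 6.40 in chow livers, a difference of 0.58 (SE 0.183, adjusted p = 0.319). Of the 31, 16 had a higher mean in HDAC6 knockout than in chow livers (median 0.01; 45.6% of all genes) and 3 lay wholly above chow (4.83% of all genes). For HDAC9 knockout livers those counts were 24 (median 0.13; 46.0% of all genes) and 1 (5.39% of all genes), and 1 lay wholly below.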

How the data were processed

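Per the submitters' processing notes, the deposited values are log2 expression per probe set after RMA (robust multi-array average), made by the authors. The software and chip definition are not given in the sources used here. The deposited scale was kept as it was, and every sample column was used. A public platform annotation gave 20380 of 22626 probe sets 1 symbol, 691 several and 1555 none. Probe sets with 1 symbol were used, the brightest standing for each of 4956 genes with several.

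The fit was made with limma 3.58.1 in R 4.3.3 (4 group means over 12 arrays, moderated statistics with a mean-variance trend, 14.32 degrees of freedom), two-sided, with Benjamini-Hochberg adjustment over 12393 genes and a threshold of 0.05. With 3 arrays against 3, an exact permutation test cannot give a p under 0.1, so none was used. The procedure was tested on simulated data. The number of arrays limits the precision.

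The members and lists were chosen with earlier results of these data known, and no list was tested as a set. Members given in full are those past the threshold and the 3 of smallest p per class and chow comparison. Psmb10, Ifit1 and the members whose groups do not overlap are named after their values were seen, and the other members are named with their group means. Related genes named are those past the threshold and the 2 of smallest p per list. Same-numbered arrays of different groups deviated from their group means with correlations of -0.15 to 0.15 (18 pairs, 4 over 0.1), so the numbers were not taken to pair the samples. Motifs were searched in Python 3.11.15 with pandas 2.3.3, and figures were drawn with matplotlib 3.10.9.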

Additional observations from a re-analysis of the deposited data

How the results depend on the processing

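Alternatives were a prior without trend, a fit of the 2 groups compared, quantile normalization, centring of the arrays on their medians, a filter on genes below the 25th percentile of mean level, the mean of all probe sets, removal of shared-probe sets, a replicate block and each array left out. For the 18 differences from chow of smallest p per class, which were chosen for that, 243 recomputed values were made. Of these, 234 kept their side of the threshold and their direction, and 0 changed sign. All but Gbp3 in high-fat livers were uncalled in the fit reported, so keeping their side means staying uncalled. Gbp3 in high-fat livers lost its call in 8 of 13, and Psmb9 gained a call under quantile normalization. Other members did change sign: 13 of 19 type I genes had the higher mean in HDAC9 knockout than in chow livers, and 5 without HDAC9 knockout replicate 3. The causes were not tested, except that removing shared-probe sets removes Gbp3 itself. Members called in high-fat against chow livers, 1 in the fit reported, numbered 0 without the trend, in the 2-group fit, with the mean of probe sets and without shared-probe sets, and 2 under quantile normalization, and 0 to 1 with an array left out. With the replicate block, Gbp3 also passed in high-fat against HDAC9 knockout livers and among the 4 groups (1 member each), and leaving out arrays gave 0 to 1 among the 4 groups (Irf7, without HDAC9 knockout replicate 1). The block changed no other call of a member. Genes called for HDAC6 knockout against chow livers (2) numbered 1 in the 2-group fit, under quantile normalization and under median centring, and 1 to 4 with an array left out. For HDAC9 knockout against chow livers (12) they numbered 3 without the trend, 0 in the 2-group fit, 5 under quantile normalization and without dim genes, 7 with the mean of probe sets, and 0 to 13 with an array left out. For high-fat against chow livers (36) the mean of probe sets gave 22 and leaving out arrays 13 to 33. For HDAC9 against HDAC6 knockout livers (1) the 2-group fit, the mean of probe sets and the replicate block gave 2 each, and leaving out arrays 1 to 4. For high-fat against HDAC6 knockout livers (18) the 2-group fit gave 56, the removal of shared-probe sets 31, and leaving out arrays 8 to 24. For high-fat against HDAC9 knockout livers (54) the mean of probe sets gave 29 and leaving out arrays 9 to 97. Among the 4 groups (41) the replicate block gave 64 and leaving out arrays 15 to 70.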
